A study of Mus musculus with 2 samples.

Results

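The mRNAs of 10 genes that earlier literature names as direct targets of the microRNA miR-34a were followed across all cell types of colitis-associated colon cancers (CACs). These are *Met*, *Notch1*, *Notch2*, *Cd44*, *Ccnd1*, *Cdk6*, *E2f3*, *Bcl2*, *Sirt1* and *Foxp1*. No measured value enters the rule that names them, and they are 10 of the 32291 genes in the table.

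MiR-34a is a microRNA whose gene is induced by p53. A microRNA pairs through its seed, a short run of bases near its 5′ end, with complementary stretches in the 3′ UTR of mRNAs, which lowers their stability and translation. The effect on any single mRNA is usually small. The 10 genes act in growth factor and Notch signalling, cell adhesion, entry into the cell cycle, survival, deacetylation and transcription.

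CACs of 2 groups of female mice entered single-cell RNA sequencing, and each genotype gave 1 library. Both groups carried floxed *Mir34a* alleles (Mir34a_F/F), and the group labelled Mir34a_Mye_KO also carried LysM-Cre, in which Cre is driven from the *Lyz2* locus and acts in myeloid cells. Mice aged 6 to 10 weeks received azoxymethane (AOM, a colon carcinogen) at 10 mg/kg and 3 periods of dextran sodium sulfate (DSS), which injures the colon epithelium, in the drinking water. AOM was injected 5 days before the first DSS period and again 5 days before the second. DSS was given at 2.5% in the first periods and at 2% in the last, for 5 days each, and CACs were collected on day 110. For each genotype, 6 to 8 CACs of 3 mice were pooled before sequencing, and cells were not assigned to mice. Since there was 1 library per genotype, cells are not replicates, no test between genotypes was possible and the 95% intervals below cover counting error only.

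To show what a match to miR-34a looks like in these mRNAs, the mature sequences and 1 site per gene are given first. RefSeq (GRCm38.p6) places mature miR-34a-5p at chr4:150068473-150068494 on the plus strand, and 3 more mature mouse microRNAs taken from its table have the same bases 2 to 8. A further member of this seed family is miR-34c-5p. In the 4 sequences, capitals mark the seed.
miR-34a-5p: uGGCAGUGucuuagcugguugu
miR-34b-5p: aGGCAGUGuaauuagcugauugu
miR-449a-5p: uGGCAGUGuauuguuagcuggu
miR-449c-5p: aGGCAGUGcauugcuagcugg

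Matches were searched on the transcript strand in the longest annotated 3′ UTR of each gene (GENCODE M21, mm10). The motifs were CACTGCCA (called 8mer), CACTGCC without the following A (7mer-m8), ACTGCCA without the preceding C (7mer-A1) and ACTGCC alone (6mer), and each match was counted in its longest class. For each member, the match of the longest class that lies nearest to the stop codon is shown with the bases before it, and capitals mark the match.
Met, 7mer-m8, chr6:17571877-17571906, plus strand: actatcccttccccaacagttctCACTGCC
Notch1, 7mer-m8, chr2:26459338-26459367, minus strand: tgtacttttattttccacagaaaCACTGCC
Notch2, 8mer, chr3:98149583-98149612, plus strand: actacagagatgaagaagacaaCACTGCCA
Cd44, 6mer, chr2:102812813-102812842, minus strand: gggaacccctcaaaaagccacaggACTGCC
Ccnd1, 7mer-A1, chr7:144930745-144930774, minus strand: tttgttttgttttacaatgtcagACTGCCA
Cdk6, 8mer, chr5:3522971-3523000, plus strand: gtcctcacagctctgctgccgaCACTGCCA
E2f3, 8mer, chr13:29907164-29907193, minus strand: gagatagcaattcatttgtaaaCACTGCCA
Bcl2, 7mer-A1, chr1:106543060-106543089, minus strand: gcaaatggtcgaatcagctatttACTGCCA
Sirt1, 7mer-A1, chr10:63319849-63319878, minus strand: ctgcatagatcttcaccacaaatACTGCCA
Foxp1, 7mer-m8, chr6:98929569-98929598, minus strand: tgcacagcgctgcatgttgatacCACTGCC

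An 8mer was found in 3 of the 10 genes (*Notch2*, *Cdk6* and *E2f3*), against 4.91% of the 21037 genes with an annotated 3′ UTR. An 8mer or 7mer-m8 was found in 6 members, against 14.3% of genes, and a match of at least 6 bases in 10 members, against 29.9% of genes. *Cd44* held the 6mer alone. The members' 3′ UTRs were long, with a median of 2954.5 bases against 960 for all genes, and long 3′ UTRs hold more matches. *Notch1* and *Notch2* each held 5 matches, and *Cdk6* held 6 in a 3′ UTR of 10217 bases. Coordinates describe letters in the annotation, not binding.

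The Mir34a_F/F library held 20312 cells with a median of 4787 UMIs, and the Mir34a_Mye_KO library held 18571 cells with a median of 7716 UMIs. Cells of the Mir34a_Mye_KO library were deeper in 11 of 11 cell types, with a ratio of medians from 1.11 (endothelial cells) to 5.69 (B cells). The libraries share 96 barcode sequences. The defining markers of each cell type had their highest level in that type, except *Gata2* in basophils of the Mir34a_Mye_KO library. Basophils (48 and 40 cells), fibroblasts (57 and 60), endothelial cells (116 and 107) and erythroid cells (106 and 30) were few. Epithelial mRNAs were present in every type. The median of 10 epithelial genes, as a percent of their level in epithelial cells, was 28.8% and 31.5% in macrophages of the Mir34a_F/F and the Mir34a_Mye_KO library, 40.7% and 35.2% in neutrophils, and 37.1% and 29.1% in T cells. The primary transcript of *Mir34a* was counted in macrophages with 133 UMIs (exact Poisson 95% interval 111 to 158) in the Mir34a_F/F library and 462 (421 to 506) in the Mir34a_Mye_KO library, a level of 0.0723 and 0.111 UMIs per 10000. Whether the counted stretch lies within the deleted part is not given in the sources used here, and the rows for the mature microRNA, hairpin and stem loop held 0 UMIs in macrophages and neutrophils of both libraries. *Lyz2*, the gene into which LysM-Cre is inserted and which the insertion disrupts, was lower in the library labelled Mir34a_Mye_KO, with 3892 and 1379 UMIs in macrophages (log2 ratio of the Mir34a_Mye_KO over the Mir34a_F/F library -1.96, -2.09 to -1.83) and 143 and 81 in neutrophils. A row whose name joins Cre and *Lyz2* had 451 and 172 UMIs in macrophages, so that it was counted in both libraries and more in the one labelled Mir34a_F/F, while the row named for Cre alone held 0. What sequence these rows count is not given in the sources used here. The direction of *Lyz2* is the one the labels give. The joined row ran the same way as *Lyz2*, also in neutrophils (16 and 10 UMIs). With its sequence not given, it cannot check the labels. The targeted gene did not check the labels either, and every direction below rests on the libraries as labelled. The make-up of a cell type was not held constant between the libraries, and its part in the ratios was not tested.

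Levels below are UMIs per 10000, taken in each cell and averaged over the cells of a type, and the first value is always that of the Mir34a_F/F library. The log2 ratio is that of the Mir34a_Mye_KO library over the Mir34a_F/F library. A gene was counted as higher or lower where its log2 ratio reached 0.32 in size, a small fold because repression by a microRNA is usually small, among genes with a mean level of at least 0.1 over both libraries. Cell types are said to overlap in a gene where the ranges of their 2 library values do, whatever their counting intervals.

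**Figure D1:**
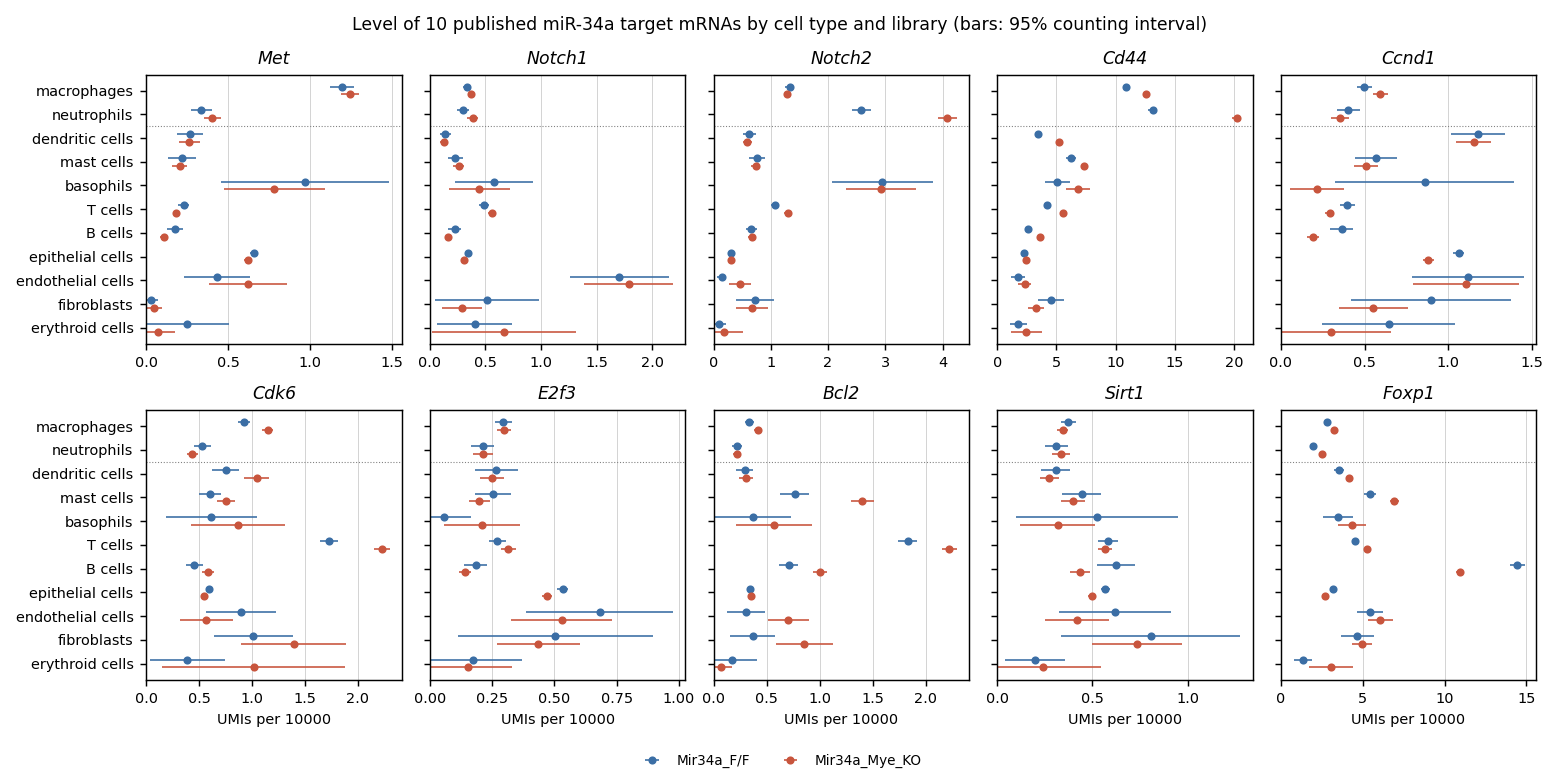
Level of each member (x axis, UMIs per 10000, a scale of its own in each panel) in 11 cell types (y axis). Blue marks the Mir34a_F/F and red the Mir34a_Mye_KO library, with 95% counting intervals. The dotted line sets macrophages and neutrophils, in which LysM-Cre is meant to act, apart from the other types. Of those, dendritic cells, mast cells and basophils were classed neither with nor without LysM-Cre. *Cd44* stands out in neutrophils, *Notch2* in neutrophils and basophils, *Met* in macrophages, *Notch1* in endothelial cells, *Bcl2* and *Cdk6* in T cells and *Foxp1* in B cells.

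Among the receptors, *Met*, the receptor tyrosine kinase for hepatocyte growth factor, displayed its highest level in macrophages of both libraries. Its level was 1.19 and 1.24 UMIs per 10000 in macrophages, 0.970 and 0.781 in basophils (16 and 28 UMIs), and 0.654 and 0.617 in epithelial cells. The counting intervals of basophils, 0.459 to 1.48 and 0.474 to 1.09, spanned the level of epithelial cells in both libraries and that of macrophages in the Mir34a_F/F library, so the place of basophils in this order was not resolved. In macrophages, *Met* thus stood at 183% and 201% of its epithelial level, where the 10 epithelial genes ranged from 22.7% to 33.2% and from 25.1% to 33.7%. In T cells it stood at 34.9% and 29.8%, within the range of the epithelial genes there (29.6% to 43.7% and 20.9% to 32.2%). Over the types other than epithelial cells, 9 of its 20 values lay at or under the highest epithelial gene, and how far epithelial RNA makes up these values was not tested. The lowest level of *Met* was in fibroblasts, at 0.0294 and 0.0488. *Hgf*, the ligand of Met, was highest in basophils, at 6.43 and 7.22 on 109 and 198 UMIs. It had 1.36 and 0.586 in fibroblasts, on 41 and 61 UMIs, and 0.255 and 0.305 in macrophages.

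A *Met* UMI was seen in 34.7% of macrophages (exact binomial interval 32.8% to 36.8%) and 35.3% (33.5% to 37.2%). In epithelial cells it was seen in 33.2% and 33.1%, and in T cells in 7.93% and 11.9%. After each cell was thinned to 1000 UMIs, the share was 10.4% and 8.67% of macrophages, 6.37% and 5.78% of epithelial cells, and 1.86% and 1.70% of T cells. T cells held the smallest share of these 3 types at both depths. Macrophages and epithelial cells had intervals that overlapped at full depth and not at the fixed depth, where the share was larger in macrophages.

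*Notch1*, a receptor that is cleaved after binding a ligand on a neighbouring cell, was highest in endothelial cells, at 1.70 and 1.79. No other type overlapped with them. Next came erythroid cells (6 and 7 UMIs), T cells, basophils (11 and 14 UMIs), fibroblasts (12 and 20 UMIs), macrophages, neutrophils and epithelial cells. Each of these types overlapped with its neighbour in this order. The counting intervals of erythroid cells, 0.064 to 0.739 and 0.022 to 1.32, spanned the levels of T cells and epithelial cells. The place of erythroid cells was thus not resolved. T cells held 0.488 and 0.559, and dendritic cells held the lowest level, 0.139 and 0.130. The Notch ligands *Jag1* (1.09 and 1.09) and *Dll4* (0.826 and 0.913) and the Notch target *Hes1* (2.33 and 2.27) were also measured in endothelial cells.

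*Notch2*, the paralog of Notch1, had another distribution. Its level was 2.58 and 4.08 in neutrophils and 2.94 and 2.92 in basophils, and these types overlapped. By their counting intervals neutrophils lay above basophils in the Mir34a_Mye_KO library (3.92 to 4.25 against 2.31 to 3.54) and were not resolved from them in the Mir34a_F/F library. Macrophages followed with 1.33 and 1.28, and T cells held 1.07 and 1.29. The intervals of macrophages lay above those of T cells in the Mir34a_F/F library (1.26 to 1.41 against an upper bound of 1.14) and overlapped with them in the Mir34a_Mye_KO library. Epithelial cells held 0.300 and 0.305, so that *Notch2* in neutrophils stood at 860% and 1337% of its epithelial level.

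*Cd44*, an adhesion receptor for hyaluronan and osteopontin, was highest in neutrophils, at 13.1 and 20.2, followed by macrophages at 10.9 and 12.6. Neither type overlapped with its neighbour in the order. Mast cells held 6.25 and 7.33, T cells 4.20 and 5.53, and epithelial cells 2.26 and 2.40. *Spp1*, which encodes osteopontin, had 8.33 and 3.58 in macrophages, a log2 ratio of -1.22. It was also lower in neutrophils (-0.43), T cells (-1.31), B cells (-1.52), mast cells (-1.37) and epithelial cells (-0.77). Of the remaining types, fibroblasts alone did not pass the fold for *Spp1*.

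Among the cell cycle genes, *Ccnd1*, which encodes cyclin D1, was highest in dendritic cells (1.18 and 1.15), endothelial cells (1.12 and 1.11) and epithelial cells (1.06 and 0.880). In macrophages its level was 0.499 and 0.594, or 47.0% and 67.5% of the epithelial level. In T cells it was 0.397 and 0.291, or 37.5% and 33.1%, within the range of the epithelial genes in the Mir34a_F/F library and just above it in the Mir34a_Mye_KO library. *Cdk6*, a kinase that acts with D-type cyclins, was highest in T cells (1.73 and 2.23), which did not overlap with fibroblasts (1.01 and 1.39), the next in order. Macrophages held 0.925 and 1.15 and neutrophils 0.532 and 0.437. *E2f3*, a transcription factor of S-phase genes, held 0.681 and 0.529 in endothelial cells, 0.534 and 0.471 in epithelial cells, and 0.295 and 0.297 in macrophages. Endothelial and epithelial cells overlapped, and macrophages lay below them.

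Among the genes of survival and deacetylation, *Bcl2*, which blocks apoptosis at the mitochondria, was highest in T cells (1.83 and 2.22) and did not overlap with mast cells (0.765 and 1.40), the next in order. Macrophages held 0.338 and 0.421 and neutrophils 0.218 and 0.223. *Sirt1*, an NAD-dependent deacetylase, held 0.806 and 0.736 in fibroblasts, on 20 and 59 UMIs, 0.582 and 0.564 in T cells, 0.568 and 0.499 in epithelial cells, 0.374 and 0.343 in macrophages, and 0.310 and 0.334 in neutrophils.

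*Foxp1*, a forkhead transcription factor with a known role in B cell development, was highest in B cells, at 14.4 and 10.95. Mast cells (5.45 and 6.94) and endothelial cells (5.42 and 6.08) followed and overlapped. T cells held 4.51 and 5.28, epithelial cells 3.16 and 2.70, macrophages 2.81 and 3.24, and neutrophils 1.98 and 2.48.

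The profile over types was similar in both libraries. Spearman's rho between the libraries over the 11 cell types was 0.66 for *Cdk6* to 0.97 for *Notch2*. These points share library, depth and total, and the values are descriptive. The profile of each member was also compared with 7049 genes over the 22 values of 11 types and 2 libraries. The 2 most alike by Pearson's r were *Ptpre* (0.84) and *Slc2a1* (0.75) for *Met*, *Pear1* (0.85) and *Apold1* (0.83) for *Notch1*, and *Diaph1* (0.91) and *Ntng2* (0.91) for *Notch2*. They were *Tiparp* (0.90) and *Mapkapk2* (0.90) for *Cd44*, *Ptms* (0.83) and *Nostrin* (0.80) for *Ccnd1*, and *Glud1* (0.84) and *Hivep2* (0.83) for *Cdk6*. For *E2f3* they were *Mast2* (0.89) and *Smurf1* (0.89), for *Bcl2* *St6galnac3* (0.89) and *Elf1* (0.88), for *Sirt1* *Brwd1* (0.89) and *Chd6* (0.86), and for *Foxp1* *Bbs9* (0.90) and *Etnk1* (0.88).

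In macrophages, a type in which deletion of *Mir34a* by LysM-Cre was intended, none of the 10 members passed the fold in either direction, with 0 higher and 0 lower. Of all 8593 genes, 6.62% were higher and 14.8% lower. The log2 ratio was above 0 for 8 of 10 members, and their median was 0.17 against -0.06 for all genes. *Cdk6* (0.31, 0.20 to 0.43) and *Bcl2* (0.31, 0.10 to 0.53) came closest to the fold, followed by *Ccnd1* (0.25, 0.08 to 0.42). *Cd44* rested on 17705 and 42165 UMIs and had a log2 ratio of 0.21 (0.18 to 0.25), as had *Foxp1* (0.21, 0.14 to 0.28). *Notch1* (0.13), *Met* (0.05), *E2f3* (0.01), *Notch2* (-0.06) and *Sirt1* (-0.12) had intervals that included 0. The count of 0 depended on the scaling. With UMIs summed over cells 4 members were higher (*Cd44*, *Cdk6*, *Bcl2* and *Foxp1*), with 12.8% of all genes higher and 21.5% lower. The log2 ratio of *Ccnd1* then turned negative and those of *Notch2* and *Sirt1* turned positive, all short of the fold. With totals that leave out immunoglobulin, mitochondrial and ribosomal RNA-like genes 3 were higher (*Ccnd1*, *Cdk6* and *Bcl2*), with 13.6% higher and 7.80% lower, a scaling that moved the median of all genes in macrophages from -0.06 to 0.05.

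**Figure D2:**
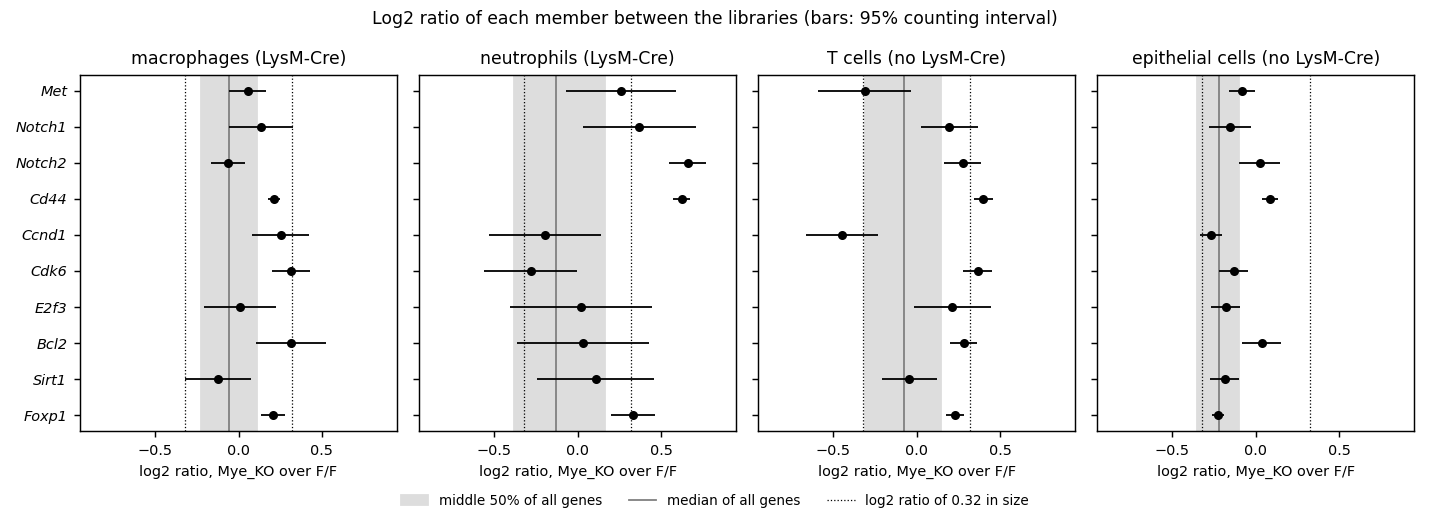
Log2 ratio of the Mir34a_Mye_KO over the Mir34a_F/F library for each member (x axis) in macrophages, neutrophils, T cells and epithelial cells, with 95% counting intervals; grey bands hold the middle 50% of all genes, grey lines their median and dotted lines mark a log2 ratio of 0.32 in size. *Notch2* and *Cd44* lie furthest to the right in neutrophils, at 0.66 and 0.62, while *Notch2* in macrophages lies at -0.06.

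In neutrophils, 4 members were higher and 0 lower, where 14.9% of 7612 genes were higher and 30.4% lower. *Notch2* showed the largest ratio among the members, with levels of 2.58 and 4.08 on 1311 and 3611 UMIs and a log2 ratio of 0.66 (0.55 to 0.77). *Cd44* followed with 13.1 and 20.2, on 6428 and 17599 UMIs, and a log2 ratio of 0.62 (0.57 to 0.67). *Notch1* (0.298 and 0.385, log2 ratio 0.37, 0.03 to 0.71) and *Foxp1* (1.98 and 2.48, log2 ratio 0.33, 0.20 to 0.46) lay just past the fold. *Notch2* and *Cd44* stayed past the fold under each alternative run here, with log2 ratios of *Notch2* from 0.67 to 0.76 and of *Cd44* from 0.60 to 0.72. *Notch1* and *Foxp1* did not, with 0.24 and 0.14 when UMIs were summed over cells, where *Ccnd1* (-0.38) and *E2f3* (-0.35) were lower. The remaining members had log2 ratios from -0.28 (*Cdk6*, -0.56 to -0.005) to 0.26 (*Met*, -0.07 to 0.59). The median over the members was 0.19 against -0.13 for all genes.

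A *Notch2* UMI was seen in 58.9% and 78.9% of neutrophils. After thinning to 1000 UMIs the shares were 21.8% (exact binomial interval 19.3% to 24.5%) and 32.1% (29.3% to 34.9%). These intervals take each cell as a separate draw and cover no spread between mice, so they do not compare the genotypes. The shares also rest on the same *Notch2* UMIs as the ratio. In epithelial cells, where *Notch2* was low, the thinned shares were 2.89% and 3.07%. For *Cd44* in neutrophils the thinned shares were 63.2% and 76.5%.

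In T cells, a type in which LysM-Cre is not meant to act, 2 members were higher (*Cd44* and *Cdk6*) and 1 lower (*Ccnd1*), where 9.97% of 8928 genes were higher and 24.0% lower. The median over the members was 0.22 against -0.08 for all genes, so that members lay above the median of all genes in T cells as in macrophages. *Cd44* had 4.20 and 5.53 and a log2 ratio of 0.40 (0.34 to 0.46). *Cdk6* had 1.73 and 2.23 and a log2 ratio of 0.37 (0.28 to 0.45), and *Bcl2* had 1.83 and 2.22 and 0.28 (0.20 to 0.36). *Ccnd1* (-0.45, -0.66 to -0.23) and *Met* (-0.31, -0.59 to -0.03) had T cell levels within or just above the range of the epithelial genes, and the epithelial genes themselves fell from 37.1% to 29.1% of their epithelial level between the libraries. After subtraction of the epithelial background *Ccnd1* in T cells turned to 3.16 and no value was left for *Met*. Then 7 members, *Ccnd1* among them, were higher and 0 lower, where 31.8% of genes were higher and 9.77% lower. The share subtracted was 37.1% and 29.1% of the epithelial level, and *Ccnd1* stood at 37.5% and 33.1% of it. Little *Ccnd1* was thus left, and its turned ratio gives no direction. Summed UMIs gave 4 higher and 2 lower members, where 11.9% and 22.9% of genes passed.

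In epithelial cells, 0 members were higher and 0 lower, where 2.61% of 9009 genes were higher and 29.7% lower. The median over the members was -0.14 against -0.22 for all genes, and with totals that leave out immunoglobulin, mitochondrial and ribosomal RNA-like genes it was 0.12 against 0.04. The median mitochondrial content of epithelial cells was 11.2% and 18.3%. The summed level of 6 macrophage markers in epithelial cells was 2.08 and 3.06 UMIs per 10000, against 37.7 and 44.4 in macrophages, with none of the 6 at 0, and its part in the ratios was not tested. *Cd44* had a log2 ratio of 0.08 (0.04 to 0.13), *Bcl2* 0.04 (-0.08 to 0.15) and *Ccnd1* -0.27 (-0.34 to -0.20), the lowest of the members. With the reduced totals *Cd44* was 0.37, past the fold, and *Ccnd1* -0.02, and *Ccnd1* was 0.03 in cells under 10% mitochondrial content with at least 500 expressed mRNAs. With summed UMIs *Ccnd1* and *Cdk6* were lower past the fold, where 4.12% of genes were higher and 37.4% lower.

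In dendritic cells, which like mast cells and basophils were classed neither with nor without LysM-Cre, 2 members were higher (*Cd44*, 0.59, and *Cdk6*, 0.47) and 0 lower, where 17.0% of genes were higher and 18.0% lower. In mast cells, *Bcl2* (0.765 and 1.40, log2 ratio 0.88, 0.60 to 1.15) and *Foxp1* (0.35) were higher and *E2f3* (-0.35, -0.87 to 0.17) lower, where 12.5% of genes were higher and 31.1% lower. The interval of *E2f3* included 0, and its ratio turned to 0.34 after subtraction of the epithelial background. *E2f3* in mast cells stood at 47.4% and 42.1% of its epithelial level, from which a share of 36.2% and 26.0% was subtracted. Most of its level was thus taken away, and the turned ratio gives no direction. In B cells, 3 members were higher (*Cd44*, *Cdk6* and *Bcl2*) and 6 lower (*Met*, *Notch1*, *Ccnd1*, *E2f3*, *Sirt1* and *Foxp1*), where 8.5% of genes were higher and 49.9% lower. *Foxp1* in B cells fell by 0.40 on the log2 scale, beside a median of all genes there of -0.32. With totals that leave out immunoglobulin, mitochondrial and ribosomal RNA-like genes these were -0.20 and -0.01, *E2f3* turned to 0.053, and 3 members were higher and 2 lower (*Met* and *Ccnd1*), where 20.0% of genes were higher and 21.2% lower. After subtraction of the epithelial background *Ccnd1* (0.24) and *E2f3* (2.70) turned. Then 4 members, *E2f3* among them, were higher and 2 lower, where 24.5% of genes were higher and 26.8% lower. The share subtracted in B cells was 33.0% and 20.4% of the epithelial level. *Ccnd1* stood at 34.2% and 22.1% of that level and *E2f3* at 34.3% and 29.9%. Little *Ccnd1* was thus left in either library, and little *E2f3* in the Mir34a_F/F library, so their turned ratios give no direction. Immunoglobulin mRNAs took 30.04% and 40.77% of the UMIs of B cells. *Cd44* had a positive log2 ratio in 10 of 11 types, with fibroblasts (-0.48) the exception, and with UMIs summed over cells epithelial cells (-0.19) as well. Its counting intervals in endothelial cells (-0.16 to 0.99) and erythroid cells (-0.52 to 1.42) included 0. The share of all genes positive in as many types is not given here.

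In the types with few cells, counting intervals were wide and large shares of all genes passed the fold. Members past it were 4 higher and 3 lower in basophils, where 30.3% of genes were higher and 41.6% lower, and 4 and 3 in endothelial cells, where 21.9% were higher and 40.7% lower. In fibroblasts they were 2 and 3 of the 9 members that reached the minimum level, where 28.5% were higher and 41.4% lower, and in erythroid cells 5 and 3, where 42.8% were higher and 36.5% lower. *Notch2* in endothelial cells (0.145 and 0.466) rested on 16 and 46 UMIs.

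Types with and without LysM-Cre within the same libraries were compared by the difference of their log2 ratios. In macrophages minus T cells, 2 members were higher by the same fold (*Met* and *Ccnd1*) and 1 lower (*Notch2*), where 14.8% of 7903 genes were higher and 7.19% lower. The median difference over the members was -0.06 against 0.03 for all genes. *Notch2* differed by -0.34 (-0.49 to -0.19), but by -0.05 with summed UMIs, and *Cd44* by -0.19 (-0.25 to -0.12). *Ccnd1* differed by 0.70 (0.43 to 0.98), but by -2.44 after subtraction of the epithelial background, which left little *Ccnd1* in T cells. For *Met* (0.37, and 0.07 after thinning) the T cell level lay within the range of the epithelial genes, and no difference could be had after that subtraction.

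In macrophages minus epithelial cells, 3 members were higher (*Ccnd1*, 0.52; *Cdk6*, 0.44; *Foxp1*, 0.43) and 0 lower, where 16.9% of 7779 genes were higher and 3.38% lower. The median difference was 0.23 against 0.16 for all genes. The median mitochondrial content was 2.01% and 3.75% in macrophages and 11.2% and 18.3% in epithelial cells. With totals that leave out immunoglobulin, mitochondrial and ribosomal RNA-like genes, *Cdk6* (0.24) and *Foxp1* (0.25) were no longer past the fold and *Ccnd1* (0.40) was, beside medians of all genes of 0.05 in macrophages and 0.04 in epithelial cells. In cells under 25% mitochondrial content the 3 differences were 0.35, 0.36 and 0.35 in the same order. With summed UMIs the differences of *Cdk6* and *Foxp1* were larger and *Ccnd1* stayed past the fold. *Notch1*, *Notch2*, *Cd44* and *Bcl2* then passed it as well, beside medians of all genes of -0.06 in macrophages and -0.22 in epithelial cells. For differences between types, the share of all genes past the fold is given only for the levels as reported. Calls of differences under the alternatives stand without such a share.

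In neutrophils minus T cells, 2 members were higher (*Met*, 0.57, and *Notch2*, 0.39) and 1 lower (*Cdk6*, -0.65), where 14.5% of 7117 genes were higher and 14.9% lower. The *Met* difference rests on a T cell level within the range of the epithelial genes, and none could be had after subtraction. The median difference was 0.16 against -0.01 for all genes. *Cd44* differed by 0.22 (0.15 to 0.30). In neutrophils minus epithelial cells, 5 members were higher and 0 lower, where 20.9% of 7048 genes were higher and 9.48% lower. These were *Notch2* (0.64, 0.47 to 0.80), *Foxp1* (0.56), *Cd44* (0.54, 0.47 to 0.61), *Notch1* (0.53) and *Met* (0.35, 0.007 to 0.68), and the median was 0.32 against 0.07. With totals that leave out immunoglobulin, mitochondrial and ribosomal RNA-like genes the first 4 stayed past the fold, at 0.45, 0.36, 0.35 and 0.35 in that order, and *Met* (0.16) did not.

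**Figure D3:**
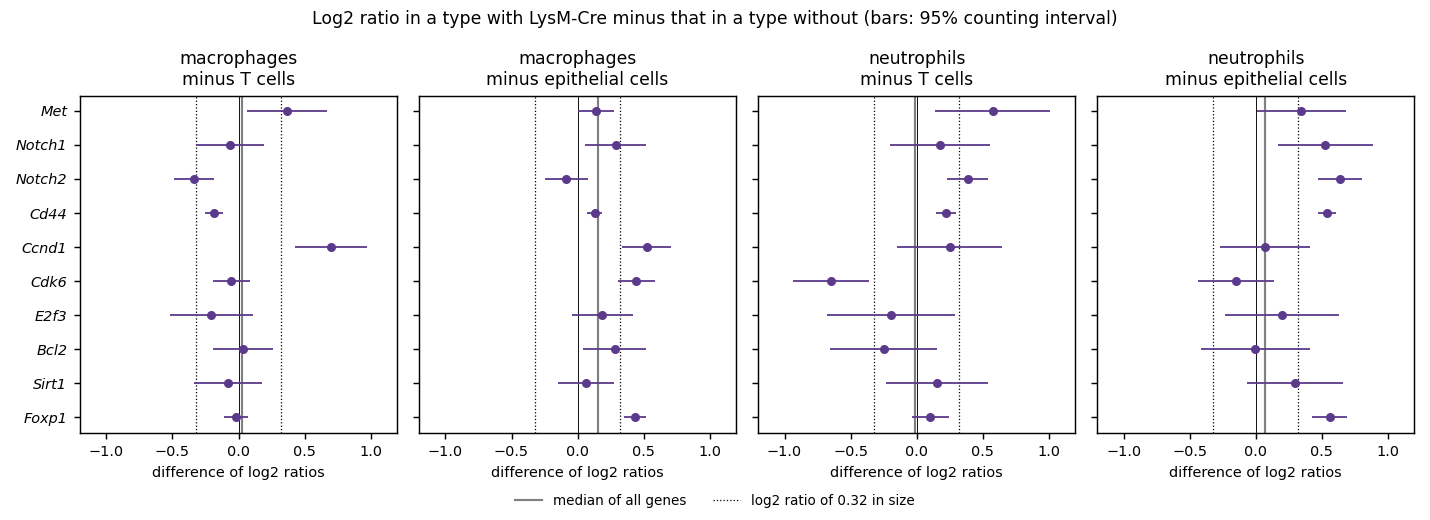
Log2 ratio of each member in macrophages or neutrophils minus that in T cells or epithelial cells (x axis), with 95% counting intervals; grey lines mark the median of all genes and dotted lines a difference of 0.32 in size. *Notch2* lies on opposite sides of 0 for macrophages (-0.34) and neutrophils (0.39) when each is set against T cells.

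Levels relative to epithelial cells separated the members into those far above the epithelial genes and those near them. In neutrophils, *Ccnd1* stood at 38.0% and 40.0% of its epithelial level and *E2f3* at 39.6% and 45.5%, where the epithelial genes ranged from 34.7% to 47.6% and from 30.1% to 39.0%. *Cd44* stood at 581% and 844%. Over all types other than epithelial cells, the number of 20 values at or under the highest epithelial gene was 9 for *Met*, 6 each for *Ccnd1* and *E2f3*, 3 each for *Notch2* and *Sirt1*, 2 for *Bcl2*, 1 each for *Cd44*, *Cdk6* and *Foxp1*, and 0 for *Notch1*.

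**Figure D4:**
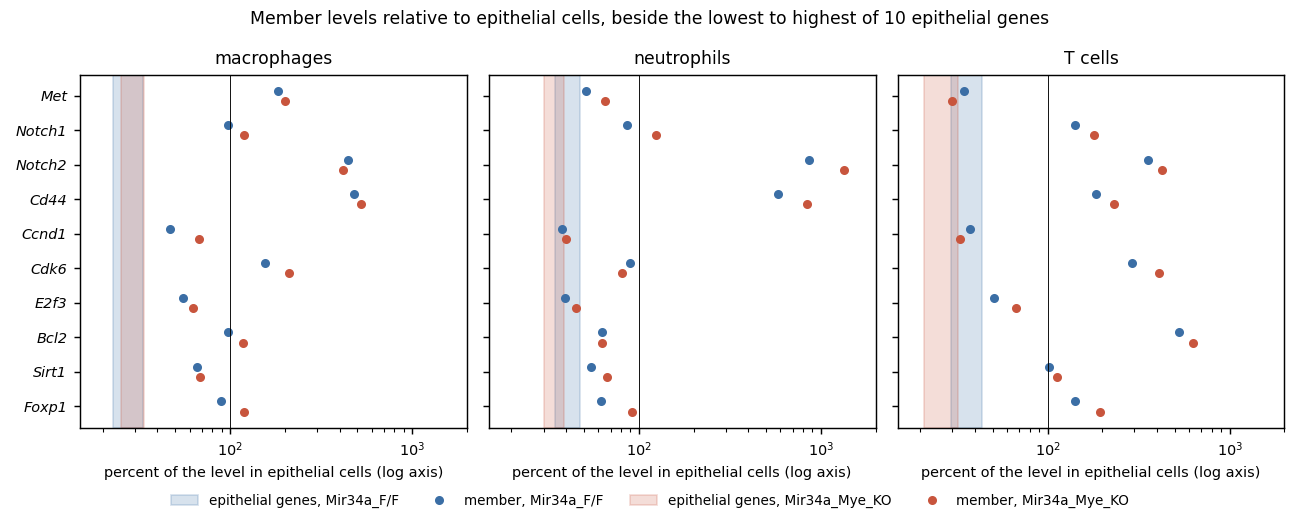
Level of each member as a percent of its level in epithelial cells of the same library (x axis, log scale) in macrophages, neutrophils and T cells; shaded bands run from the lowest to the highest of 10 epithelial genes. *Notch2* and *Cd44* lie far to the right of the bands in neutrophils, and *Met* lies within them in T cells only.

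Members were further described in cells with and without a UMI of a marker. *Mrc1*, which encodes the mannose receptor of M2-like macrophages, was detected in 37.7% and 47.0% of macrophages. *Met* was low in *Mrc1*-positive and high in *Mrc1*-negative macrophages, with 0.612 against 1.55 in the Mir34a_F/F library (log2 ratio of positive over negative -1.34, -1.53 to -1.15) and 0.656 against 1.76 in the Mir34a_Mye_KO library (-1.42, -1.56 to -1.29). *Cd44* (-0.52 and -0.42) and *Foxp1* (-0.44 and -0.32) were also lower in *Mrc1*-positive macrophages of both libraries, while *Notch1* was higher (0.30, 0.004 to 0.61, and 0.37, 0.13 to 0.61). *Mrc1*-positive macrophages were deeper, with a median of 10915 against 5854 UMIs and of 18462 against 6139.5 UMIs. Their epithelial genes stood at 25.2% against 31.1% and at 23.7% against 38.1% of the epithelial level.

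In epithelial cells with a UMI of *Lgr5*, a stem cell marker, *Bcl2* (log2 ratio over cells without 1.249 and 1.09), *Cdk6* (0.86 and 0.55) and *Notch1* (0.59 and 0.73) were higher, while *Met* (0.03 and 0.01) had intervals that included 0. In cells with a UMI of *Krt20*, a marker of differentiated colonocytes, *Met* was higher (0.48 and 0.52) and *Notch1* (-0.90 and -1.19) and *Bcl2* (-1.08 and -0.89) were lower. In cells with a UMI of *Mki67*, a marker of proliferation, *E2f3* (0.72 and 0.78) and *Ccnd1* (0.72 and 0.39) were higher, while *Cdk6* (-0.08 and -0.16) was not. In T cells with a UMI of *Foxp3*, which marks regulatory T cells, *Bcl2* (-1.57 and -1.93), *Notch2* (-1.22 and -1.10) and *Foxp1* (-0.79 and -0.65) were lower and *Cdk6* (0.37 and 0.49) higher. Every value named here as higher or lower had that direction in both libraries, and cells with a UMI of a marker were deeper in each comparison except *Foxp3* in the Mir34a_Mye_KO library.

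**Figure D5:**
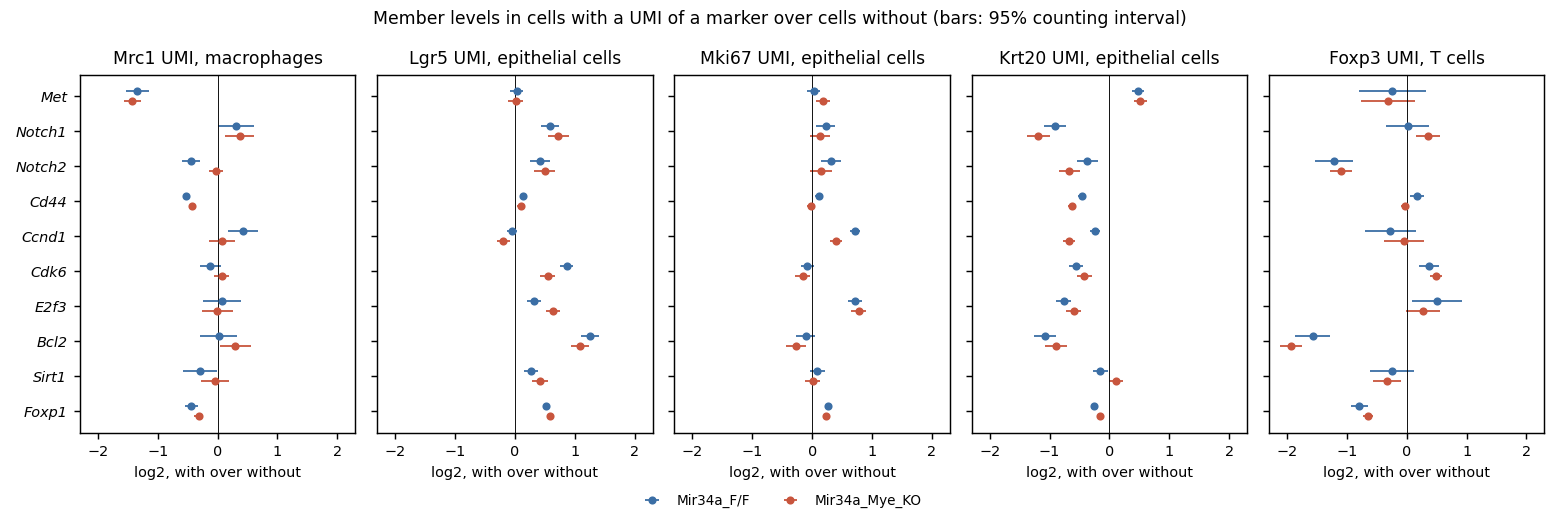
Log2 ratio of each member's level in cells with a UMI of a marker over cells without (x axis) for *Mrc1* in macrophages, *Lgr5*, *Mki67* and *Krt20* in epithelial cells and *Foxp3* in T cells, in the Mir34a_F/F (blue) and Mir34a_Mye_KO (red) libraries with 95% counting intervals. *Met* lies far to the left for *Mrc1* (-1.34 and -1.42) and *Bcl2* for *Foxp3* (-1.57 and -1.93).

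A further 32 published miR-34a targets were counted for comparison. In macrophages, 23 reached the minimum level, 2 were higher and 2 lower, where 6.62% of all genes were higher and 14.8% lower. *Axl*, a receptor tyrosine kinase (1.16 and 1.51, log2 ratio 0.39, 0.30 to 0.48), and *Fut8*, a fucosyltransferase (0.505 and 0.632, log2 ratio 0.32), were the higher ones, and *Ldha*, which encodes a lactate dehydrogenase subunit (4.23 and 3.18, log2 ratio -0.41), was among the lower. In neutrophils, 21 reached the minimum, 6 were higher and 4 lower, where 14.9% of all genes were higher and 30.4% lower. Among these, *Cd274*, which encodes PD-L1 (2.29 and 4.04, log2 ratio 0.82, 0.70 to 0.94), *Nampt*, an enzyme of NAD synthesis (1.73 and 2.70, 0.64), and *Ctnnb1*, which encodes beta-catenin (3.24 and 4.52, 0.48), were higher and *Ldha* (3.85 and 2.93, -0.39) lower. In T cells 0 were higher and 4 lower, of 25, where 9.97% of all genes were higher and 24.0% lower. In epithelial cells 3 were higher and 5 lower, of 22, where 2.61% were higher and 29.7% lower.

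Over all genes, those with an 8mer match had a median log2 ratio of 0.01 in macrophages (505 genes), against -0.07 for genes without a match. These medians were -0.05 (443 genes) and -0.17 in neutrophils, 0.02 (538 genes) and -0.11 in T cells, and -0.18 (520 genes) and -0.23 in epithelial cells. Genes with an 8mer thus lay above genes without a match in types with and without LysM-Cre. Length of the 3′ UTR was not balanced between these lists.

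Of 26 genes that act with the members, 17 reached the minimum level in macrophages, where 0 were higher and 4 lower (*Jag1*, *Spp1*, *Ccnd3* and *Bcl2a1b*), beside 6.62% and 14.8% of all genes. In neutrophils 15 did, with 1 higher and 4 lower, beside 14.9% and 30.4%. The higher one was *Mcl1*, a relative of *Bcl2* that keeps neutrophils alive (9.03 and 12.6, log2 ratio 0.48). *Cdkn1a*, a p53 target that inhibits cyclin-dependent kinases, had 4.41 and 4.21 in macrophages and 2.60 and 2.01 in epithelial cells (log2 ratio -0.37, beside a median of all genes there of -0.22). *Ccnd2*, a paralog of *Ccnd1*, had 1.07 and 1.17 in macrophages and 2.42 and 1.70 in epithelial cells.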

How the data were processed

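The authors loaded 30000 cells per genotype, used 10x 3′ v3.1 chemistry and aligned to mm10 with Cell Ranger 7.2.0. They filtered cells by the number of expressed mRNAs and by mitochondrial content (under 25%), removed doublets with Scrublet and assigned cell types. The authors deposited natural log values, ln(1 + UMIs per 10000 UMIs of the cell), with an annotation of library and cell type. In the deposited annotation, 2470 and 4130 cells were at or over 25% mitochondrial content. The log was undone, which gave whole UMIs with a largest deviation of 1.5e-10, over 38883 cells with a total of 147109016 and 193133086 UMIs per library.

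Levels are means over cells of UMIs per 10000. Intervals at 95% are from the weighted Poisson variance for levels and ratios, exact Poisson for UMI sums and exact binomial for shares. They cover counting error only, which for shares is that of the cells drawn, and no spread between mice. The call at a log2 ratio of 0.32 in size and the minimum mean level of 0.1 were the same for all genes. Likeness was Pearson's r of log2(level + 0.1) among genes whose highest level was at least 0.5. The members come from earlier literature, but they and the lists, thresholds and comparisons were chosen with earlier results of these data known. Named genes are the 10 members, the 2 most alike genes of each, other published targets past that fold in macrophages or neutrophils with a mean of at least 0.5, and partner genes where a member's account turns on them. As alternatives, UMIs were summed over the cells of a type, cells were thinned to 1000 UMIs, 410 genes (immunoglobulin, mitochondrial or like ribosomal RNA) were left out of cell totals, cells were kept under 25% mitochondrial content, or under 10% and from 500 expressed mRNAs, the epithelial level times the median share of the 10 epithelial genes was subtracted, and the fold was set to 1.5 or the minimum level to 0.5. The calculation was tested on simulated data for macrophages and neutrophils only, with Python 3.11.15, numpy 2.4.6, scipy 1.17.1 and pandas 2.3.3. Simulated levels also varied between cells, which the intervals do not cover. The test is thus not taken to show that the intervals hold the true value at the 95% level. Figures were drawn with matplotlib 3.10.9.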

Additional observations from a re-analysis of the deposited data

Results flagged for a closer look

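In 3 cases the log2 ratio between the libraries reached 0.32 in size in opposite directions, positive in neutrophils and negative in another cell type, with counting intervals on opposite sides of 0. *Notch1* had 0.37 in neutrophils and -0.46 in B cells. *Cd44* had 0.62 in neutrophils and -0.48 in fibroblasts. *Foxp1* had 0.33 in neutrophils and -0.40 in B cells. In epithelial cells *Notch1* (-0.16, -0.28 to -0.03) and *Foxp1* (-0.23, -0.26 to -0.19) also had intervals below 0, without reaching that size, and both were positive with totals that leave out immunoglobulin, mitochondrial and ribosomal RNA-like genes (0.09 and 0.05). No opposition in size held under each alternative: with those totals *Notch1* (-0.08) and *Foxp1* (-0.20) in B cells and *Cd44* in fibroblasts (-0.25) fell short of 0.32, as did *Notch1* (0.24) and *Foxp1* (0.14) in neutrophils with summed UMIs. With 1 library per genotype the difference was not tested. The median of all genes was -0.13 in neutrophils, -0.32 in B cells and -0.14 in fibroblasts, and the 57 and 60 fibroblasts held 158 and 211 *Cd44* UMIs. Of all genes, 14.9% were higher in neutrophils, 49.9% were lower in B cells and 41.4% were lower in fibroblasts. *Notch1* and *Foxp1* in B cells differed from the median of all genes there by only -0.14 and -0.08. The share of all genes with such opposite directions is not given here.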

How the results depend on the processing

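Members counted as higher in macrophages were 0 as reported (6.62% of all genes), 4 with summed UMIs (12.8%), 2 after thinning (12.5%), 3 with totals reduced by immunoglobulin, mitochondrial and ribosomal RNA-like genes (13.6%), 1 with cells under 25% mitochondrial content (7.24%), 1 with the stricter cell filter (7.72%) and 4 after subtraction of the epithelial background (12.2%). In neutrophils they were 4 as reported (14.9% of all genes), 2 with summed UMIs (14.8%), 7 after subtraction (45.0%) and 2 at 1.5-fold (5.4%), and 2 were lower with summed UMIs (37.5%) and 2 after thinning (32.1%). The median in neutrophils was 0.75 after subtraction, which also moved the median of all genes there from -0.13 to 0.25.

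Some log2 ratios that were past the fold as reported changed sign, whatever the size of the new value. With summed UMIs they were *Notch2* in erythroid cells (-1.13), *Cdk6* in basophils (-0.14) and fibroblasts (-0.25) and *Sirt1* in endothelial cells (0.10). After thinning they were *Met* (-0.26) and *Cdk6* (0.36) in endothelial cells, *Notch1* in basophils (0.26), and *Ccnd1* (0.11) and *Cdk6* (-0.80) in fibroblasts. After subtraction they were *Ccnd1* in T cells (3.16) and B cells (0.24) and *E2f3* in mast cells (0.34) and B cells (2.70). The difference of *Ccnd1* in macrophages minus T cells (-2.44) changed sign as well. Subtraction left little *Ccnd1* in T cells and B cells, and little *E2f3* in B cells of the Mir34a_F/F library. It also took most of the *E2f3* level in mast cells of both libraries. These changes of sign after subtraction therefore give no direction. *E2f3* in B cells was 0.053 with the reduced totals, and *Notch1* in erythroid cells -0.079 with the stricter filter. The median over members was 0.24 in B cells after subtraction and -0.060 in erythroid cells with summed UMIs. The cause was not tested. Of the members' log2 ratios, the direction was kept by 82 of 109 with summed UMIs, 77 of 101 after thinning, 91 of 109 with reduced totals, 104 of 109 and 94 of 108 with the cell filters, and 72 of 86 after subtraction.

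No paired analysis was possible because each genotype had 1 library. Genotype, library, depth and mice cannot be told apart, and rare mRNAs in types with few cells rest on few UMIs.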
